A study of Mus musculus with 6 samples.

Results

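The genes that receive and relay interferon signals were followed in BV2, a permanently growing cell line derived from mouse microglia, which are the macrophages of the brain. They are the type I receptor chains Ifnar1 and Ifnar2, the type II receptor chains Ifngr1 and Ifngr2, the kinases Jak1, Jak2 and Tyk2, and the transcription factor subunits Stat2 and Irf9. The 9 genes were taken by symbol from the annotated FPKM table, each had 1 row there, and their reads were taken by gene identifier from the count table. All 9 were among the 13199 tested genes, out of 25032 with a read. The series' title concerns microglial necroptosis, a lytic form of cell death. It compares 3 libraries labelled TDP43-NLS, from BV2 cells overexpressing TDP-43 that the design text describes as mutated in its nuclear localisation signal, with 3 labelled GFP, from BV2 cells overexpressing GFP. The labels give no time, promoter, clone or species for the constructs, no strand setting for the counting, and no statement that replicates came from separate cultures, so p-values measure only how these samples spread, and that spread may be technical.

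Interferons signal through pairs of receptor chains that carry Janus kinases on their cytoplasmic tails. Type I interferons bring Ifnar1, which holds Tyk2, together with Ifnar2, which holds Jak1. The kinases then phosphorylate STAT proteins, among them Stat2, which joins Irf9 in the factor ISGF3. Interferon gamma binds Ifngr1, which holds Jak1, and Ifngr2, which holds Jak2. ISGF3 binds the interferon-stimulated response element (ISRE), and STAT pairs bind the gamma-activated site (GAS). Microglia respond to both kinds of interferon.

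Because the factors of the pathway bind these elements, the promoters of the 9 genes were searched for them. RefSeq promoter sequences on GRCm38.p6, from 250 bases before to 50 after a transcript start, were found for all 9 genes, with 2 starts for Irf9. The ISRE was searched as GAAA-NN-GAAA or its complement TTTC-NN-TTTC, written without the hyphens, and the GAS as TTCNNNGAA, which covers both strands. Of 32851 mouse promoters in the same table, 3.44% held the ISRE letters and 8.3% the GAS letters. Among the matches in the 9 genes were the ISRE letters in Stat2, at bases -222 to -213, and the GAS letters in Ifnar2, at -214 to -206. A match describes these letters and is not a binding site. The stretches with these matches in Stat2 and Ifnar2 are shown 5′ to 3′ with the match in capitals, both on the plus strand of GRCm38.p6.
Stat2, chr10:128270248-128270347: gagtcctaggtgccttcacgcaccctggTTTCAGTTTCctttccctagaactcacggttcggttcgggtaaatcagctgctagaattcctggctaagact
Ifnar2, chr16:91372533-91372632: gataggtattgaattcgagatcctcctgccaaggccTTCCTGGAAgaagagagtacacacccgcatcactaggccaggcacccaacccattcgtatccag

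The libraries held 15062131 to 18005592 counted reads, and the 9 genes had between 251 and 3927 reads in a library. GFP replicate 2 stood apart from the other GFP libraries, since the chi-square of its counts against theirs, divided by the degrees of freedom, was 6.67 and 6.68; the same measure was 1.79 to 2.56 between TDP43-NLS libraries and 1.18 between GFP replicates 1 and 3. Tardbp, the mouse gene for TDP-43, fell in libraries with the TDP43-NLS label, at 376 ± 9.61 CPM against 451 ± 23.9 CPM in the GFP libraries (SD, n = 3 each; edgeR adjusted p = 0.000291). No row is named for a construct, and reads of a TDP-43 construct of mouse sequence could count on the Tardbp row. The groups are therefore called by their labels, and every direction rests on these labels. All 10 microglia and macrophage markers were tested, 4 rose and 4 fell, and their summed level was 2612 to 2646 CPM in the TDP43-NLS libraries and 2577 to 2613 CPM in the GFP libraries. Neuronal markers summed to at most 0.332 CPM in the TDP43-NLS libraries and 0.26 CPM in the GFP libraries, with Rbfox3, Snap25, Syt1 and Stmn2 at 0. Fibroblast markers reached at most 0.133 and 0.12 CPM, with Dcn and Lum at 0. Astrocyte markers gave 0.797 to 0.944 and 0.54 to 1.37 CPM, with Aqp4 at 0, and oligodendrocyte markers 3.44 to 5.24 and 3.17 to 5.4 CPM, with Mog at 0. Of the lymphocyte markers, Cd3e, Cd8a and Ms4a1 were at 0 and Cd4, which fell, gave 0 to 0.341 CPM in the TDP43-NLS libraries and 0.781 to 1.04 CPM in the GFP libraries.

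The pathway did not move as a block. Ifnar1, Ifnar2 and Ifngr2, which lie close together on chromosome 16, fell, while Stat2, Jak1 and Jak2 rose and Ifngr1, Tyk2 and Irf9 did not pass the test. Genes were called at a Benjamini-Hochberg adjusted p under 0.05 in edgeR's quasi-likelihood test over all 13199 genes. That test called 57.5% of all tested genes, 29.3% higher and 28.2% lower in the TDP43-NLS libraries, so that 6 called of the 9 genes is close to the background. The groups did not overlap in 6 of the 9 genes, against 63.2% of all tested genes. The median absolute log2 fold change was 0.24 over the 9 genes and 0.26 over all tested genes. In bulk RNA, fewer cells that express a gene and less RNA per cell cannot be told apart.

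**Figure D1:**
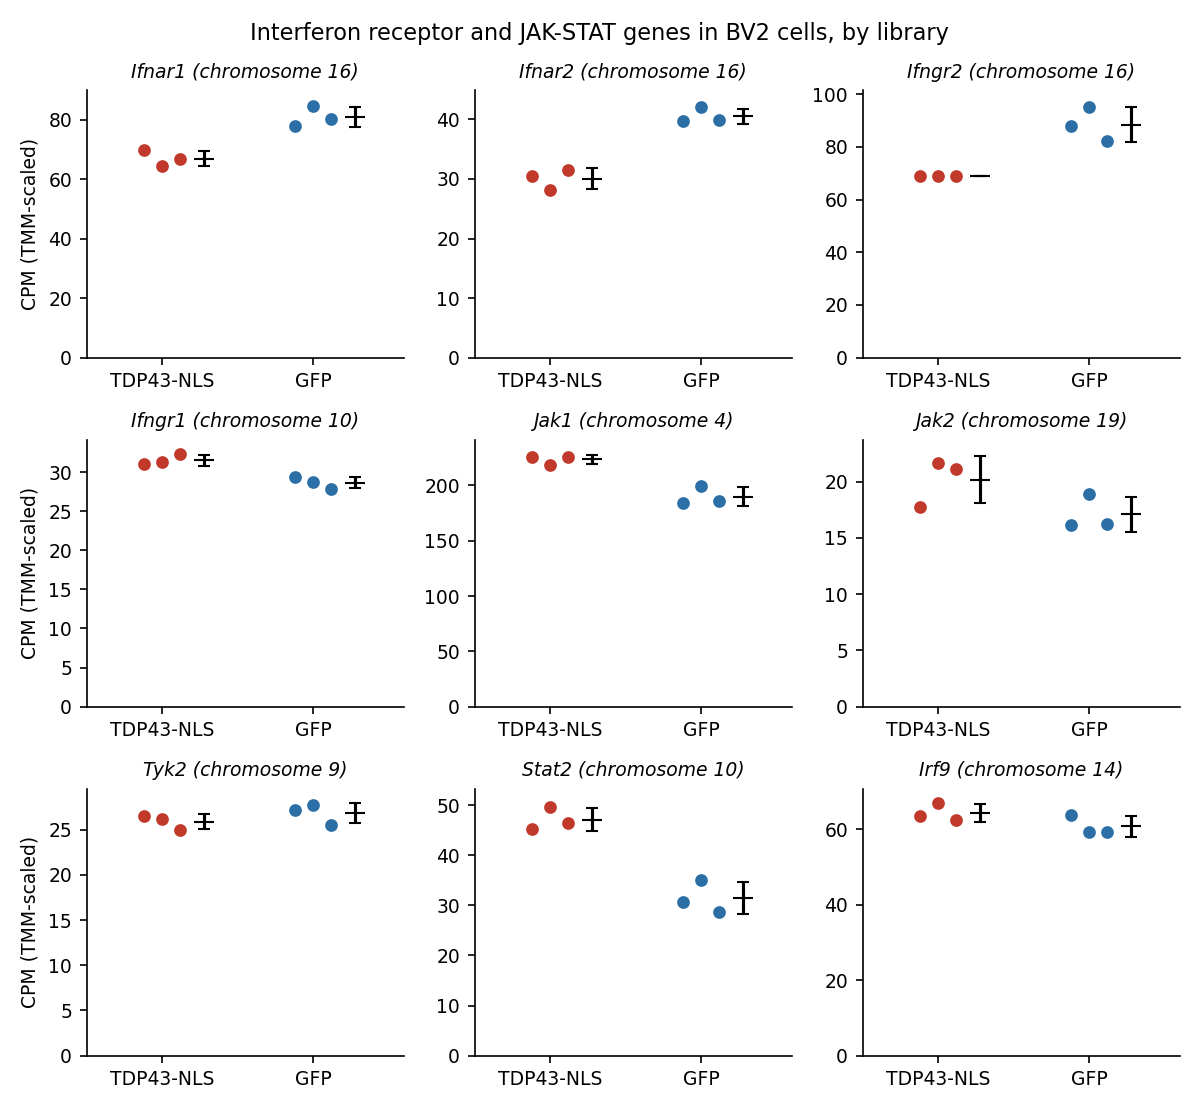
Level of each of the 9 genes in every library, in TMM-scaled CPM on axes that start at 0, for 3 TDP43-NLS libraries (left, red) and 3 GFP libraries (right, blue). Black marks are the mean and SD. Ifnar1, Ifnar2 and Ifngr2 lie lower in all TDP43-NLS libraries than in any GFP library. Stat2, Jak1 and Ifngr1 lie higher in the same way, though Ifngr1 was not called.

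Both chains of the type I receptor fell. Ifnar1 (ENSMUSG00000022967, GRCm39 chromosome 16, 91282126 to 91304329, plus strand) stood at 69.7, 64.4 and 66.8 CPM in the TDP43-NLS libraries, against 77.8, 84.5 and 80.1 CPM in the GFP libraries. CPM are reads scaled to library size, after TMM normalisation. All 3 TDP43-NLS values lay under all 3 GFP values. The means were 66.9 ± 2.64 and 80.8 ± 3.43 CPM (SD, n = 3 each). On the log2 scale the change was -0.27 (standard error 0.05, edgeR adjusted p = 0.000496). Ifnar2 (ENSMUSG00000022971, chromosome 16, 91169671 to 91202477, plus strand), the chain that binds type I interferons with the higher affinity, had 30.5, 28.1 and 31.6 CPM in the TDP43-NLS libraries, against 39.7, 42.0 and 39.9 CPM in the GFP libraries. The groups were again separate, and the fitted level fell by 25.8%. The log2 fold change was -0.43 with a standard error of 0.06 (edgeR adjusted p = 4.32e-05), and 31.6% of all tested genes had a larger absolute change.

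The chains of the interferon gamma receptor parted. Ifngr2 (ENSMUSG00000022965, chromosome 16, 91343960 to 91362511, plus strand), the signalling chain, fell, with 69.0, 68.9 and 68.7 CPM in the TDP43-NLS libraries, against 88.0, 95.2 and 82.1 CPM in the GFP libraries. The TDP43-NLS libraries were almost level with each other, and all lay under the GFP libraries. The log2 fold change was -0.36 with a standard error of 0.06 (edgeR adjusted p = 9.82e-05). Ifngr1 (ENSMUSG00000020009, chromosome 10, 19467697 to 19485977, plus strand), the ligand-binding chain, had 31.0, 31.3 and 32.3 CPM in the TDP43-NLS libraries, against 29.3, 28.7 and 27.9 CPM in the GFP libraries. The groups did not overlap, but the log2 fold change of 0.14 (standard error 0.06) fell just short of a call (edgeR adjusted p = 0.0502). The call stayed missing in 16 of 17 alternatives.

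Of the kinases, Jak1 and Jak2 rose and Tyk2 did not pass the test. Jak1 (ENSMUSG00000028530, chromosome 4, 101009564 to 101122479, minus strand), which serves both receptors, had 226, 219 and 226 CPM in the TDP43-NLS libraries, against 184, 199 and 185 CPM in the GFP libraries. Every TDP43-NLS library was above every GFP library, and the log2 fold change was 0.24 (standard error 0.04, edgeR adjusted p = 0.0004). Jak2 (ENSMUSG00000024789, chromosome 19, 29229228 to 29290480, plus strand), the partner of Ifngr2, had 17.8, 21.7 and 21.1 CPM in the TDP43-NLS libraries, against 16.1, 18.9 and 16.2 CPM in the GFP libraries. The groups overlapped, since GFP replicate 2 was above TDP43-NLS replicate 1. Its log2 fold change of 0.24 had a standard error of 0.09 (edgeR adjusted p = 0.0366), and the call was absent in 10 of 17 alternatives. They include leaving out TDP43-NLS replicate 2 (log2 fold change 0.20), TDP43-NLS replicate 3 (0.22), GFP replicate 1 (0.21) or GFP replicate 3 (0.20), and DESeq2 (adjusted p = 0.0740).

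Tyk2 (ENSMUSG00000032175, chromosome 9, 21015364 to 21042539, minus strand), the kinase of Ifnar1, had 26.5, 26.2 and 25.0 CPM in the TDP43-NLS libraries, against 27.2, 27.8 and 25.6 CPM in the GFP libraries. The groups overlapped. The log2 fold change was -0.05 with a standard error of 0.06 (edgeR adjusted p = 0.494), and 88.6% of all tested genes had a larger absolute change.

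Stat2 had the largest change of the 9 genes, and its partner in ISGF3 had none that passed the test. Stat2 (ENSMUSG00000040033, chromosome 10, 128106428 to 128128718, plus strand), the subunit with the activation domain, had 45.3, 49.7 and 46.4 CPM in the TDP43-NLS libraries, against 30.6, 34.99 and 28.8 CPM in the GFP libraries. The groups did not overlap, at 47.1 ± 2.30 and 31.5 ± 3.20 CPM (SD, n = 3 each), and the fitted level was 50.03% higher. The log2 fold change was 0.59 with a standard error of 0.07 (edgeR adjusted p = 1.27e-05), and 21.6% of all tested genes had a larger absolute change. Irf9 (ENSMUSG00000002325, chromosome 14, 55841028 to 55847487, plus strand), the DNA-binding subunit, had 63.7, 67.0 and 62.4 CPM in the TDP43-NLS libraries, against 63.9, 59.3 and 59.2 CPM in the GFP libraries. These ranges overlapped, and the log2 fold change was 0.08 with a standard error of 0.05 (edgeR adjusted p = 0.191). Irf9 shares 123 bases with Rnf31 on the same strand, which had 1902 reads in the TDP43-NLS libraries and 1450 in the GFP libraries, and how reads in the shared stretch were counted is unknown from the sources used here.

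The 3 genes on chromosome 16 fell along with many of their neighbours. Chromosome 16, which holds Ifnar1, Ifnar2 and Ifngr2, had a median log2 fold change of -0.21 over 399 tested genes, of which 205 fell and 71 rose, the second lowest of 20 chromosomes. Within 1 Mb of Ifnar1, 15 of 26 other tested genes fell and 1 rose, and their median log2 fold change was -0.33, which sets Ifnar1 at -0.27 close to its neighbours, which include Ifnar2 and Ifngr2. The neighbours of Ifnar2 and of Ifngr2 were the same genes as those of Ifnar1 apart from the members, so these are not separate comparisons. Their median log2 fold change was -0.31, against -0.43 for Ifnar2 and -0.36 for Ifngr2. Il10rb, a chain of the interleukin-10 receptor that lies between Ifnar2 and Ifnar1, fell by 0.56 on the log2 scale, Son by 0.45 and the purine synthesis gene Gart by 0.23, and Cryzl1 was the neighbour that rose, by 0.54.

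Tyk2 lay above its surroundings. Chromosome 9 had the lowest median log2 fold change of the 20 chromosomes, -0.31 over 712 tested genes, of which 418 fell and 90 rose. Of the 50 other tested genes within 1 Mb of Tyk2, 40 fell and 2 rose. Their median log2 fold change was -0.72, and 44 of the 50 lay under Tyk2's own log2 fold change of -0.05. Near the other genes the picture was mixed. Jak2, at 0.24, lay among 18 neighbours with a median log2 fold change of -0.17, of which 8 fell and 2 rose. Stat2, at 0.59, lay above 48 of its 55 neighbours, whose median log2 fold change was 0.12. The 4 neighbours of Jak1 had a median log2 fold change of 0.21, the 7 of Ifngr1 one of 0.42 and the 41 of Irf9 one of 0.23.

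**Figure D2:**
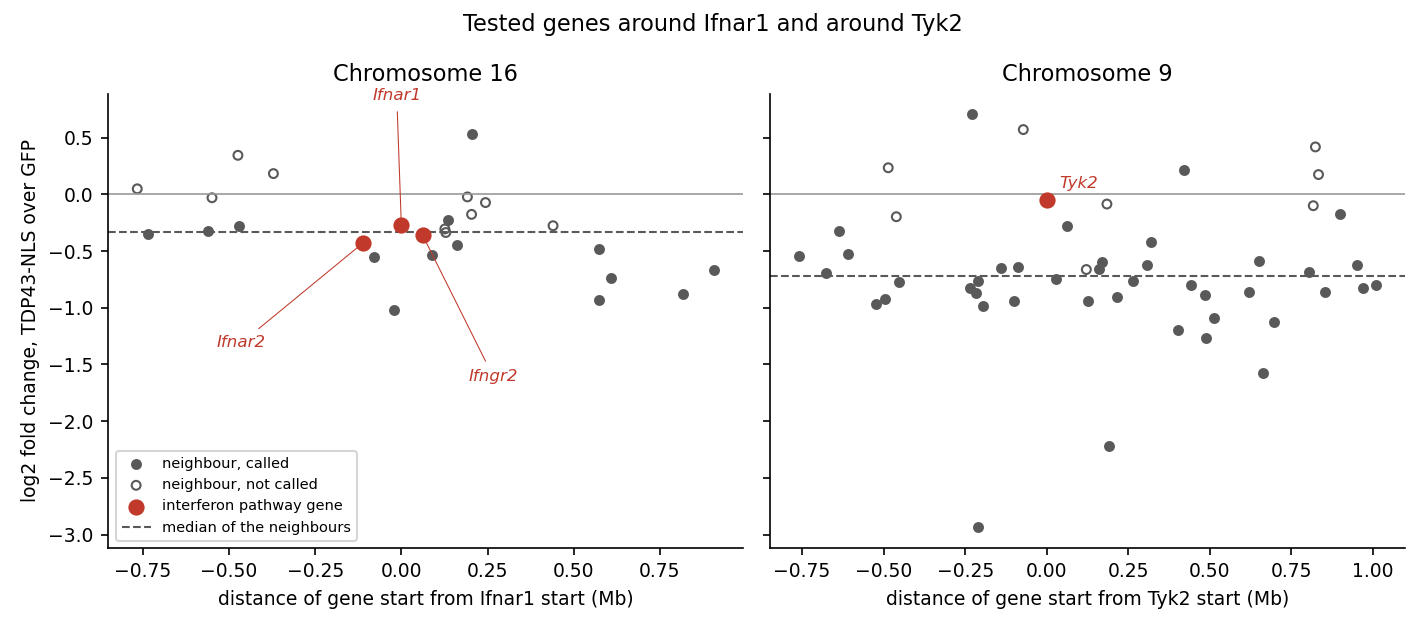
log2 fold change (TDP43-NLS over GFP) of tested genes within 1 Mb of Ifnar1 (left) and Tyk2 (right), against the distance of their start from the start of that gene in Mb. Filled grey points were called, open ones were not, and the dashed line is the neighbours' median: Ifnar1 at -0.27 lies near its line at -0.33, and Tyk2 at -0.05 lies above its line at -0.72.

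To compare each gene with its own chromosome, the libraries were scaled on the genes of that chromosome alone and the test repeated. This raised log2 fold changes by 0.21 on chromosome 16 and by 0.30 on chromosome 9. Relative to chromosome 16, Ifnar1 was no longer called (log2 fold change -0.07, standard error 0.05, edgeR adjusted p = 0.250). Ifnar2 and Ifngr2 stayed lower, at -0.23 (standard error 0.06, edgeR adjusted p = 0.00447) and -0.15 (standard error 0.05, edgeR adjusted p = 0.0216). Relative to chromosome 9, Tyk2 was called higher, at 0.25 (standard error 0.06, edgeR adjusted p = 0.00330). Stat2 and Jak1 kept their values, at 0.58 and 0.24, and Jak2 stood at 0.28 (standard error 0.09, edgeR adjusted p = 0.0170). Ifngr1, at 0.14, just passed the threshold (edgeR adjusted p = 0.0497), and Irf9 stood at -0.0033 (edgeR adjusted p = 0.963). The part of the chromosomes in these changes was not tested beyond this scaling.

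**Figure D3:**
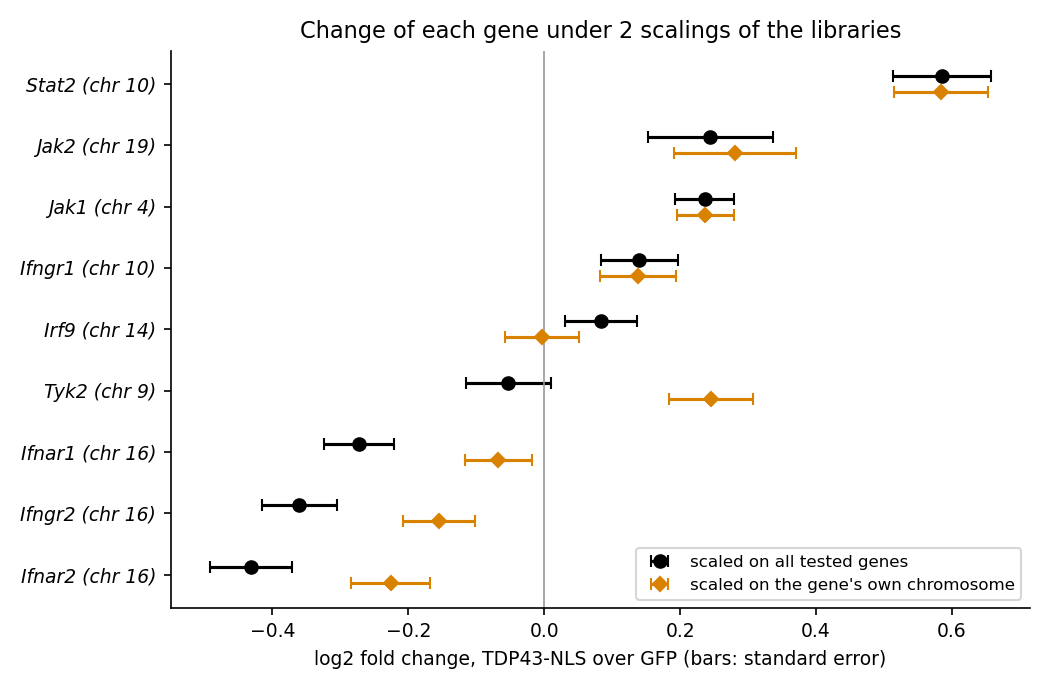
log2 fold change (TDP43-NLS over GFP) with its standard error for the 9 genes, with libraries scaled on all tested genes (black circles) or on the gene's own chromosome (orange diamonds). Stat2 stays at 0.59 and 0.58, Tyk2 stands at -0.05 and 0.25, and Ifnar1 at -0.27 and -0.07.

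Ratios of genes within a library do not depend on how libraries are scaled, but they keep any difference between the chromosomes of the genes. Ifnar1 and Ifngr2 lie on chromosome 16 and Tyk2 on chromosome 9, while Ifngr1 lies on chromosome 10 and Jak1 on chromosome 4. Scaled on their own chromosomes, Tyk2 and Jak1 had log2 fold changes of 0.25 and 0.24. The part of the chromosomes in these ratios was not tested. Ifngr1 over Ifngr2, in FPKM (read counts scaled for gene length and library size), was 0.594, 0.601 and 0.622 in the TDP43-NLS libraries, against 0.441, 0.399 and 0.450 in the GFP libraries. Stat2 over Irf9 was 0.666 ± 0.0159 in the TDP43-NLS libraries and 0.471 ± 0.0566 in the GFP libraries (SD, n = 3 each). Ifngr1 over Ifnar1 was 0.984 ± 0.0487 and 0.741 ± 0.0408, and Ifnar1 over Ifnar2 was 1.249 ± 0.0554 and 1.12 ± 0.0166, in the TDP43-NLS and GFP libraries (SD, n = 3 each). Tyk2 over Jak1 was lower in the TDP43-NLS libraries, at 0.122 ± 0.00499, than in the GFP libraries, at 0.149 ± 0.00547 (SD, n = 3 each). In these 5 ratios the groups did not overlap, and each had an exact two-sided permutation p of 0.1, the smallest that 3 against 3 allows, and 0.12 after adjustment over the 6 ratios compared. Jak2 over Jak1 had overlapping groups, at 0.130 ± 0.0151 in the TDP43-NLS libraries and 0.129 ± 0.00608 in the GFP libraries (SD, n = 3 each; exact permutation p = 1).

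**Figure D4:**
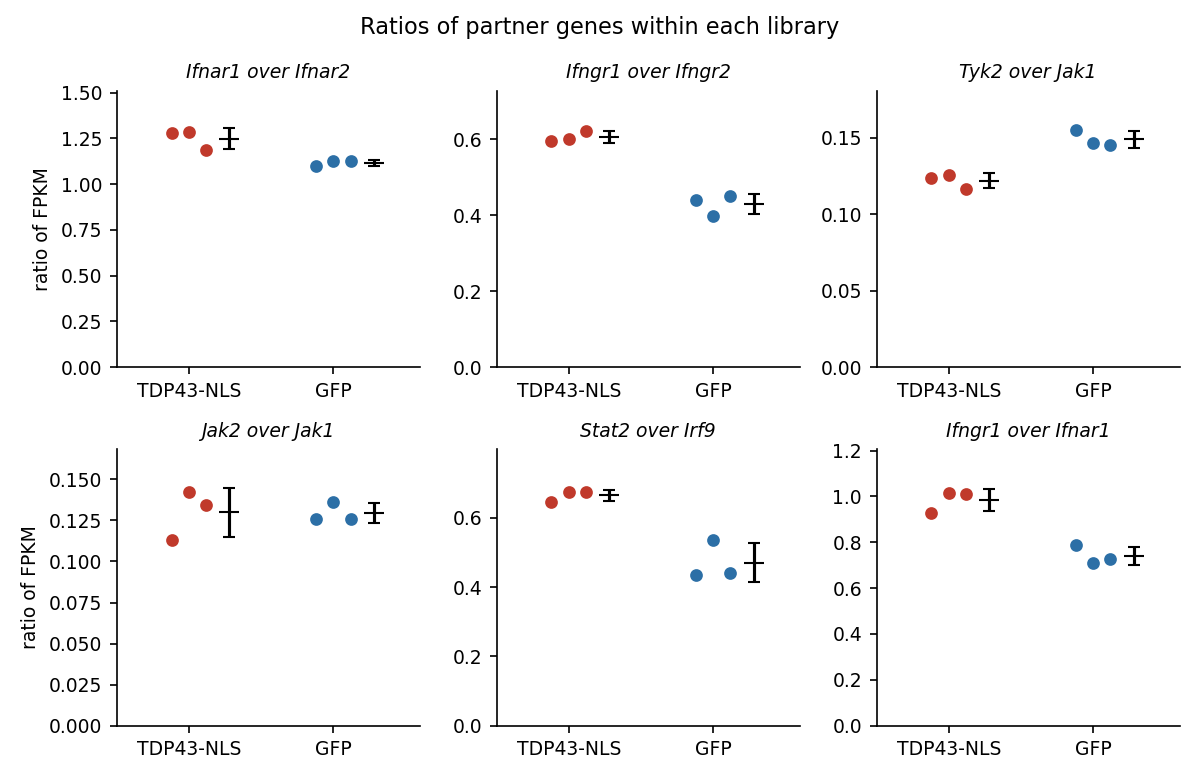
Ratio of deposited FPKM of 6 pairs of genes within each library, for 3 TDP43-NLS libraries (left, red) and 3 GFP libraries (right, blue), on axes that start at 0; black marks are the mean and SD. Ifngr1 over Ifngr2 lies at 0.594 to 0.622 in the TDP43-NLS libraries and 0.399 to 0.450 in the GFP libraries, and Jak2 over Jak1 overlaps between the groups.

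On a per-length scale Jak1 led the 9 genes in both groups, at 30.5 ± 0.504 FPKM in the TDP43-NLS libraries and 26.6 ± 1.23 FPKM in the GFP libraries (SD, n = 3 each). Ifngr2 came second in both, at 18.1 ± 0.0467 and 23.8 ± 1.81 FPKM. Below them the order differed. In the TDP43-NLS libraries Irf9, Ifnar1 and Ifngr1 followed at 11.8, 11.1 and 10.9 FPKM, and neighbours in this order had overlapping ranges. Ifnar2 at 8.92 and Stat2 at 7.86 FPKM came next, with ranges that did not overlap. In the GFP libraries Ifnar1 at 13.8 and Ifnar2 at 12.3 FPKM stood above Irf9 at 11.4, Ifngr1 at 10.2 and Stat2 at 5.38 FPKM, with no overlap between neighbours. Jak2 and Tyk2 were lowest in both, at 3.96 and 3.72 FPKM in the TDP43-NLS libraries and 3.44 and 3.96 FPKM in the GFP libraries, and did not separate from each other. These levels rest on the gene length implied by the deposited counts and FPKM, such as 5386 bases for Irf9, whose whole span is 6460 bases.

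The ligands had almost no reads. Of 21 interferon genes, 19 had no read in any library, among them Ifng and the Ifna genes listed, which allows up to 0.0592 CPM over the TDP43-NLS libraries and 0.0607 CPM over the GFP libraries (3 reads over the group, counting error only). Ifnb1 had 4 reads in the TDP43-NLS libraries and 4 in the GFP libraries, and Ifnk had 2 and 3. None was tested.

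The other STAT and JAK genes moved both ways: of 6 tested, 3 rose and 2 fell, with a median of 0.05 on the log2 scale. That is 83.3% called, beside 57.5% of all tested genes. Jak3, the kinase of the common gamma chain, rose to 36.7 ± 2.96 CPM in the TDP43-NLS libraries, against 17.0 ± 1.13 CPM in the GFP libraries (SD, n = 3 each; log2 fold change 1.11, edgeR adjusted p = 5.895e-08). Stat3, which relays interleukin-6 and interleukin-10 signals, rose by 0.56 and Stat6, which relays interleukin-4, by 0.19 on the log2 scale. Stat5a and Stat5b, near-identical genes that relay growth-factor cytokines, fell by 0.88 and 0.36. Reads may be shared between them, so each value can be uncertain. Stat4 had no read.

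Receptors that share these kinases also differed. Of 32 listed, 19 were tested, 9 rose, 5 fell and 5 were not called, which is 73.7% called beside 57.5% of all tested genes. Their median log2 fold change was 0.14, beside 0.0027 over all tested genes. Il7r, the interleukin-7 receptor, rose to 62.8 CPM in the TDP43-NLS libraries, against 18.5 CPM in the GFP libraries (log2 fold change 1.76). Csf2rb, the shared chain of the GM-CSF receptor, rose by 0.87 and Il4ra, a chain of the interleukin-4 receptor, by 1.01, and Il12rb2, a chain of the interleukin-12 receptor, fell by 2.08 on the log2 scale. Csf2rb has the near-identical neighbour Csf2rb2, so its reads may be shared.

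The brakes of the pathway moved both ways. Of 23 tested, 8 rose, 4 fell and 11 were not called, and the median log2 fold change was 0.09. That is 52.2% called, under the 57.5% of all tested genes. Socs3, which blocks receptors of the gp130 type, rose to 68.9 CPM in the TDP43-NLS libraries, against 21.7 CPM in the GFP libraries (log2 fold change 1.67). Cish, a relative of it, had 126 reads in the TDP43-NLS libraries and 11 in the GFP libraries, and rose by 3.47 on the log2 scale. Usp18, which displaces Jak1 from Ifnar2 and is itself an interferon-stimulated gene, rose by 0.79, and the phosphatase Ptpn11 by 0.42. Socs1, the brake of Jak1 and Jak2, had 75 reads in the TDP43-NLS libraries and 47 in the GFP libraries and was not called (edgeR adjusted p = 0.0844).

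Target genes were higher more often than not. Of 51 tested ISGF3 targets, 35 rose, 7 fell and 9 were not called, which is 82.4% called beside 57.5% of all tested genes, and the median log2 fold change was 0.36. Those with the smallest adjusted p were Ifitm3, which blocks viral entry, up by 3.80, Irf7, a transcription factor, up by 1.45, Oas3, an RNA sensor, up by 1.07, and Trim30a, down by 2.6 on the log2 scale. Of 29 tested targets of interferon gamma, 18 rose, 4 fell and 7 were not called, and the median log2 fold change was 0.47. This is 75.9% called. Among them Gbp3, a GTPase of cell-autonomous defence, rose by 1.63, Cd74, the class II invariant chain, by 1.62 and Nlrc5, the activator of class I genes, by 0.71 on the log2 scale. Nos2, the inducible nitric oxide synthase, had 10930 reads in the TDP43-NLS libraries and 12 in the GFP libraries, a fitted log2 fold change of 9.79. Many of these genes also answer to NF-kB. Some genes, such as Usp18 and Socs1, stand in 2 lists, and the lists were chosen with earlier results of these data known. Some genes of the Oas, Ifit and Gbp families have near-identical copies, so single values in these families can be uncertain.

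**Figure D5:**
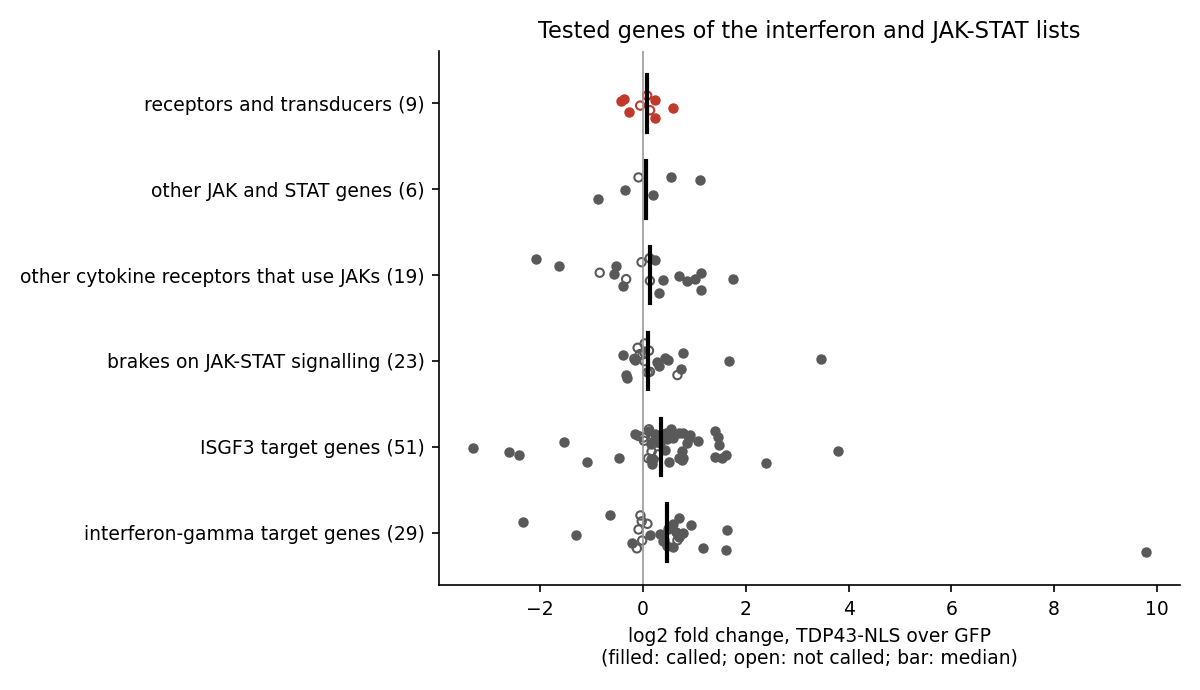
log2 fold change (TDP43-NLS over GFP) of each tested gene of the 9 receptors and transducers (red) and of 5 other lists (grey), with the number tested in brackets; filled points were called, open ones were not, and the bar is the median. The 9 genes stay between -0.43 and 0.59, while ISGF3 targets have a median of 0.36 and interferon gamma targets one of 0.47.

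For the 3 members with the largest absolute log2 fold change, the genes with the nearest profile were found over 8945 tested genes. These averaged 10 CPM or more, and nearness was the Euclidean distance between centred log2 CPM in the 6 libraries. The nearest genes were Gys1, N4bp2 and Ube2e2 for Stat2, at distances of 0.0513 to 0.0710. For Ifnar2 they were Ticam2, Amacr and Rnf111, at 0.0648 to 0.0689. For Ifngr2 they were Gabpa, also on chromosome 16, at 0.0376, then E130309D02Rik on chromosome 5 and Dstyk on chromosome 1. Over so few libraries, such a distance mostly reflects a similar difference between the groups.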

How the data were processed

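Raw counts, as deposited, cover 55359 genes in 6 libraries, and every row names a gene. The deposited FPKM table holds 25032 of them with symbol and GRCm39 position. FPKM was recomputed from the counts, with a length for each gene derived from the deposited counts and FPKM. It differed by a relative 7.75e-14 at most, so FPKM is no second measurement. Tools listed, per the submitters' processing notes, are Bowtie2 2.2.3, HISAT2 2.1.0 and HTSeq 0.6.0, without their roles. Counts were tested with edgeR 4.0.16 in R 4.3.3 (filterByExpr at 10 reads and 15 in total, TMM, quasi-likelihood F test, two-sided). The standard error is the log2 fold change divided by the square root of F. Alternatives used DESeq2 1.42.0 and limma 3.58.1. Positions are GRCm39 except for promoters. The members and lists were chosen with earlier results of these data known. All 9 members are named, with up to 4 called genes of each list with the smallest adjusted p and a mean of at least 1 CPM, and the other JAK and STAT genes; some items are not reported here. Socs1, Csf2rb2, Rnf31 and the neighbours were named after their values were seen. In data simulated for this comparison over 13199 genes, the test recovered 58% of 1.25-fold changes and 80% of 1.5-fold ones. Only 50 genes were changed at each fold, drawn from tested genes of any level. Far more genes were called in the real data, so these shares are not the recovery for the 9 members. The main test did not treat libraries with the same replicate number as pairs.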

Additional observations from a re-analysis of the deposited data

How the results depend on the processing

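With libraries scaled on the member's own chromosome, Ifnar1 lost its call (log2 fold change -0.067), Ifngr1 gained one (0.14), Tyk2 reversed to 0.25 and Irf9 to -0.0033, and 5 members were called higher. Against a log2 fold change of 0.5, 0 members were called either way: Stat2 (0.59, adjusted p = 0.227), Jak1 (0.24), Jak2 (0.24), Ifnar1 (-0.27), Ifnar2 (-0.43) and Ifngr2 (-0.36). Over all genes that test called 1221 higher and 744 lower, against 3865 and 3723. Of the lists it called 1 higher and 1 lower of the other JAK and STAT genes, and 6 higher and 2 lower of the receptors. It called 3 higher and 0 lower of the brakes. Of the ISGF3 targets 18 were called higher and 5 lower, and of the interferon gamma targets 8 and 3. Jak2 was not called with library totals (0.21), DESeq2 (0.24) or limma on log2(FPKM + 1) (0.16, also without the filter) or on log2(FPKM + 0.1) (0.20), and ran from 0.20 to 0.33 when single libraries were left out. The log2 ratio of Jak2 over Jak1, 0.0011, ran from -0.068 to 0.10 when single libraries were left out. In these cases the cause was not tested.

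The median log2 fold change of neighbours within 0.5 and 2 Mb was 0.53 and 0.33 for Ifngr1, 0.085 and 0.13 for Jak1, -0.77 and -0.68 for Tyk2 and 0.39 and 0.12 for Irf9. Within 0.5 Mb it was -0.28 for Ifnar1, -0.23 for Jak2 and 0.064 for Stat2. Same-numbered libraries had correlations of deviations of -0.06, -0.03 and 0.03 over 12085 genes, which shows no pairing by number. With so few libraries, and GFP replicate 2 apart from the others, this cannot exclude pairing, and the labels do not state it. With the replicate block 3848 genes were higher and 3679 lower, and no member's call changed. Leaving out GFP replicate 2 changed no member's call. The interferon ligands had too few reads for a test.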

Other observations

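Genes around Tyk2 that fell include the transcriptional regulators Dnmt1, the maintenance DNA methyltransferase, by 0.99, and Smarca4, a chromatin remodelling ATPase, by 1.09 on the log2 scale. Keap1, the inhibitor of the oxidative stress factor NRF2, fell by 0.94 and Icam1, an adhesion molecule that is also an interferon gamma target, by 0.64. Dnmt1 had 314 CPM in the TDP43-NLS libraries and 621 CPM in the GFP libraries, and Tyk2, less than 1 Mb away, had 25.9 and 26.9 CPM. These genes were chosen after their values were seen.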
